A study of Mus musculus with 4 samples.

Results

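Csf1, Il34 and Csf1r make up the CSF1 axis, in which a pair of ligands act on 1 shared receptor. The rows of the 4 count matrices that carry these symbols were taken, which are 3 of 32285 genes, and each gene has 1 row in every matrix. Their UMIs (unique molecular identifiers, each marking a captured RNA molecule) were followed through the cell classes of fracture callus and trabecular bone, and then along the maturation of neutrophils, monocytes and osteoclasts.

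The series holds 4 single-cell libraries, 1 from callus and 1 from trabecular bone of control mice and 1 from each tissue of mice given a glucocorticoid (GC). All were 20-week-old male C57BL/6J mice at week 2. The GC was prednisolone, labelled as a slow-release pellet at 6.25 mg/kg/d, and control mice are labelled as given placebo, whereas the study describes a pellet for its bone loss model and daily injection for its fracture model. Cells came from digestion with collagenase II, dispase II and DNase I, and how many mice stand behind a library is not given in the sources used here. With 1 library a group there is no replicate error and no test between conditions, and every interval printed is a 95% interval for counting error only.

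CSF1 is the growth factor that monocytes, macrophages and osteoclast precursors need to survive and divide, and it is made as secreted and membrane-bound forms by stromal cells, osteoblasts and other cells. IL-34 is a second ligand of the same receptor, best known from skin and brain. CSF1R is a receptor tyrosine kinase of the mononuclear phagocyte lineage. In bone, CSF1 and the RANK ligand together drive osteoclast formation, and mice without functional CSF1 or CSF1R have dense bones with few osteoclasts.

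Csf1 (ENSMUSG00000014599) lies on chr3:107741048-107760469 of GRCm38, minus strand, with 7 annotated transcripts. Il34 (ENSMUSG00000031750) lies on chr8:110741829-110805924, minus strand, with 5 transcripts. Both are annotated as protein coding. The bases before the start of Csf1 are shown because most differences given below are of this ligand. They are chr3:107760470-107760719 as RefSeq gives them on GRCm38.p6, written along the gene's own minus strand, with capitals for an NF-kB motif and a glucocorticoid receptor hexamer.
Csf1: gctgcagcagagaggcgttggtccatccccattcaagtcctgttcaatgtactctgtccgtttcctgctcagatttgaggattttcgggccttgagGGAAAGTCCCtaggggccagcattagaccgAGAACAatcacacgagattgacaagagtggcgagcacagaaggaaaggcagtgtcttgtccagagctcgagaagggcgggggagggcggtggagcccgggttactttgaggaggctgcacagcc
Motifs were searched on both strands of this window and of 32851 promoter windows of 27025 genes. An NF-kB motif, spelled GGGAN followed at once by TTNCC, occurred 1 time on the opposite strand, 154 bases before the gene, and 0.980% of all windows hold them. The glucocorticoid receptor hexamer AGAACA occurred 1 time, 124 bases before the gene, and is held by 16.1% of windows. GGGCGG, the GC box, occurred 2 times (32.7% of windows) and the ETS core GGAA 3 times (93.4%), 1 of them inside the NF-kB motif. The letters TGANTCA, TTGCNNAA and TATAAA were not in the window. A match describes letters only.

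Levels were first taken over all barcodes listed in a matrix, which do not depend on how cells were named. Csf1 and Csf1r were higher in the GC callus than in the control callus. In trabecular bone Csf1 was higher and Csf1r lower under GC. The GC callus matrix lists called barcodes only, whereas the control callus sum includes empty droplets, so the callus ratios compare unlike sets. In called cells alone they were 1.25 (1.19 to 1.32) for Csf1 and 1.65 (1.55 to 1.75) for Csf1r. Csf1 stood at 41.9 CPM (UMIs of the gene per 1000000 UMIs) in control callus and 50.9 CPM in GC callus (GC over control 1.22, interval 1.16 to 1.27), and at 16.6 and 19.5 CPM in trabecular bone (1.18, 1.06 to 1.30). Csf1r stood at 26.9 and 39.7 CPM in callus (1.47, 1.39 to 1.56) and at 35.7 and 30.7 CPM in trabecular bone (0.860, 0.799 to 0.926). Il34 was scarce, at 2.36 and 2.08 CPM in callus and 0.0485 and 0.0872 CPM in trabecular bone. At this level, fewer cells of a type and less RNA per cell cannot be told apart.

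The libraries hold 41239842 to 95852254 UMIs and gave 3745 to 6890 cells each, with medians of 3259 to 6393 UMIs. The GC callus matrix lists 7762 barcodes only, each already called by the authors, while the other matrices list empty droplets too, in which Csf1 stood at 43.2 CPM and Csf1r at 42.2 CPM in control callus. Library pairs shared 7 to 10 cell barcodes, at most 0.218% of the smaller library. Osteoclasts formed a cluster in callus but not in trabecular bone, where 1 of 3745 control cells and 0 of 4592 GC cells carried at least 3 of 8 osteoclast genes, against 98 of 110 and 102 of 122 of the cells named osteoclasts in callus. Values for osteoclasts are therefore from callus alone.

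In callus, neutrophils held the highest Csf1 level in CPM of the classes with at least 50 cells, above hypertrophic chondrocytes, stromal cells and osteoblasts. That limit leaves out mast cells or basophils. In control callus these stood at 313 CPM from 16 UMIs in 18 cells, 0.802 of the neutrophil level with an interval of 0.457 to 1.31 that holds 1. GC callus had 7 such cells with 3 Csf1 UMIs. Control callus neutrophils stood at 390 CPM (interval 366 to 416, from 944 UMIs in 1692 cells) and GC callus neutrophils at 693 CPM (655 to 732, from 1262 UMIs in 1385 cells). Neutrophils exceeded hypertrophic chondrocytes 4.71-fold in control callus (4.32 to 5.13) and 13-fold in GC callus (11.8 to 14.3). At least 1 Csf1 UMI was found in 29.7% of control and 41.2% of GC callus neutrophils, at medians of 1301 and 1174 UMIs a cell. In T and NK cells, at 1.57 and 4.94 CPM of Csf1, the same shares were 0.481% and 1.27%, although their cells were deeper, with medians of 2742 and 2816 UMIs. In control callus 1189 neutrophils had no Csf1 UMI, 281 had 1, 112 had 2 and 110 had 3 or more, and in GC callus the numbers were 814, 277, 139 and 155. The highest cell held 9 UMIs in control and 18 in GC callus. This ranking is per UMI and not per cell. Hypertrophic chondrocytes were deeper, with a median of 17418 UMIs in their largest cluster. In control callus they held more Csf1 UMIs in fewer cells than neutrophils did, at 1201 UMIs in 769 cells, and 474 of these lacked a Csf1 UMI. In GC callus they held 695 UMIs in 946 cells, and 724 lacked a Csf1 UMI.

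**Figure D1:**
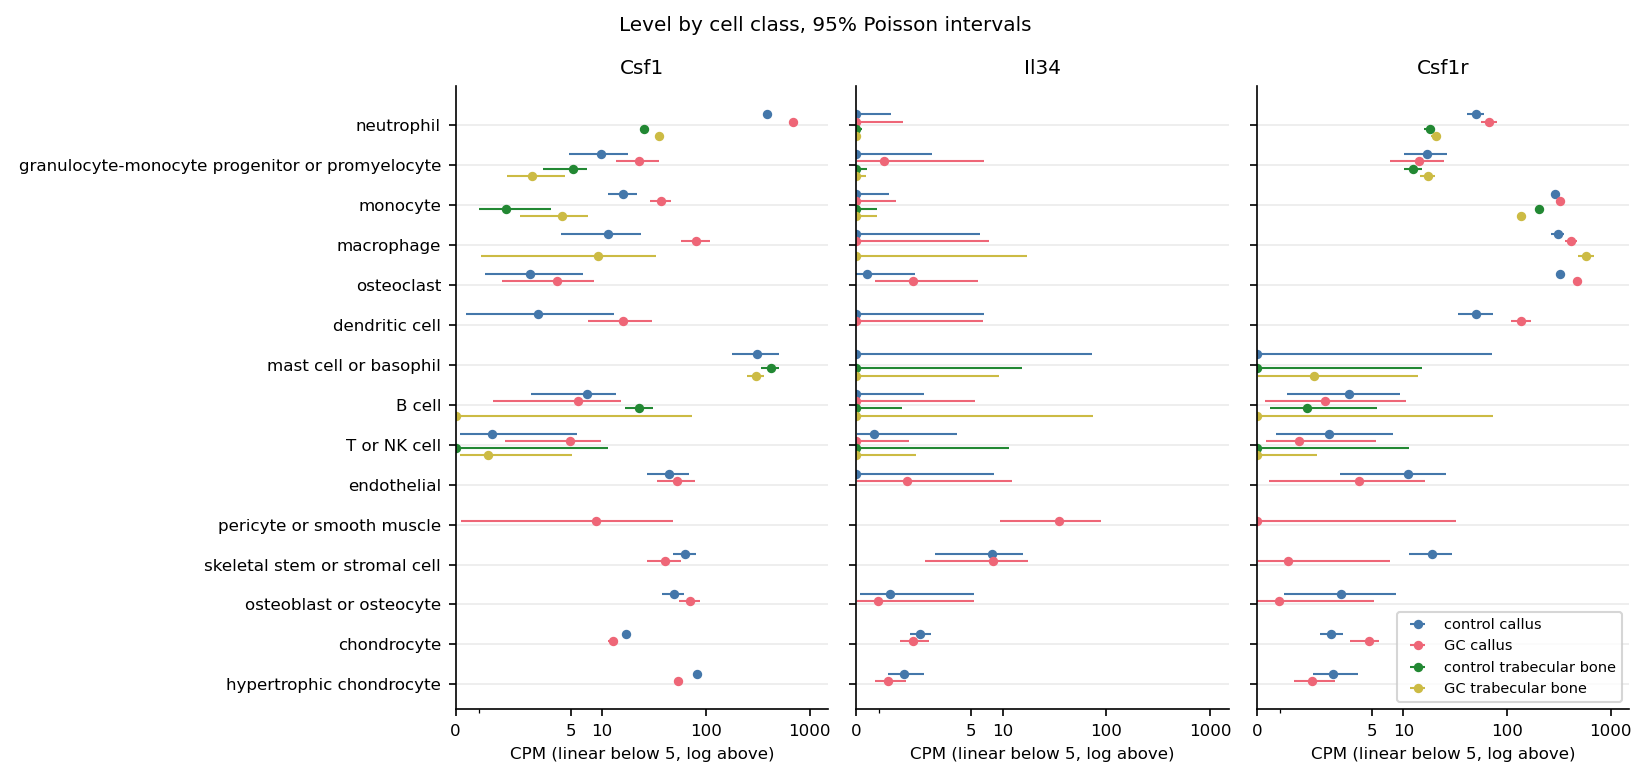
Levels of Csf1, Il34 and Csf1r by cell class and library, in CPM on an axis that is linear below 5 and log above, with points for single libraries of at least 15 cells of the class and bars for the 95% counting interval. Callus neutrophils stand at 390 and 693 CPM of Csf1, Csf1r is highest in osteoclasts, macrophages and monocytes, and Il34 is seen mainly in callus cells of the osteolineage and in pericytes.

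The Csf1 level of callus neutrophils was 1.77-fold higher under GC (1.63 to 1.93). A gene was counted as higher or lower when it passed 1.5-fold after 5 CPM were added to both levels and at least 50 UMIs were present, and in callus neutrophils 12.3% of tested genes were higher by that measure. After every cell was thinned to 1000 UMIs, 25.4% of control and 37.6% of GC neutrophils kept a Csf1 UMI. The level depended on which barcodes were taken as cells. Among callus neutrophils with 500 to under 1000, 1000 to under 2000 and 2000 to under 5000 UMIs, Csf1 stood at 460, 437 and 207 CPM in control and at 699, 851 and 200 CPM in GC callus. The deepest of these cells were of mixed maturity, with a median mature share (defined with the maturation order) of 0.936 in control and 0.721 in GC callus, and those of the most mature range stood at 311 and 428 CPM. The callus neutrophils are shallow: 0 of the 1692 control and 1 of the 1385 GC cells reached the UMI cutoff of 7534 that was set on control callus. When barcodes above the cutoff alone were clustered and named anew, with the same cutoff applied to GC callus, 40 control and 39 GC cells were named neutrophils, at 13 and 30.2 CPM of Csf1, but 33 and 36 of them were progenitors or promyelocytes in the clustering used here, so they give no value for the neutrophils above.

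**Figure D2:**
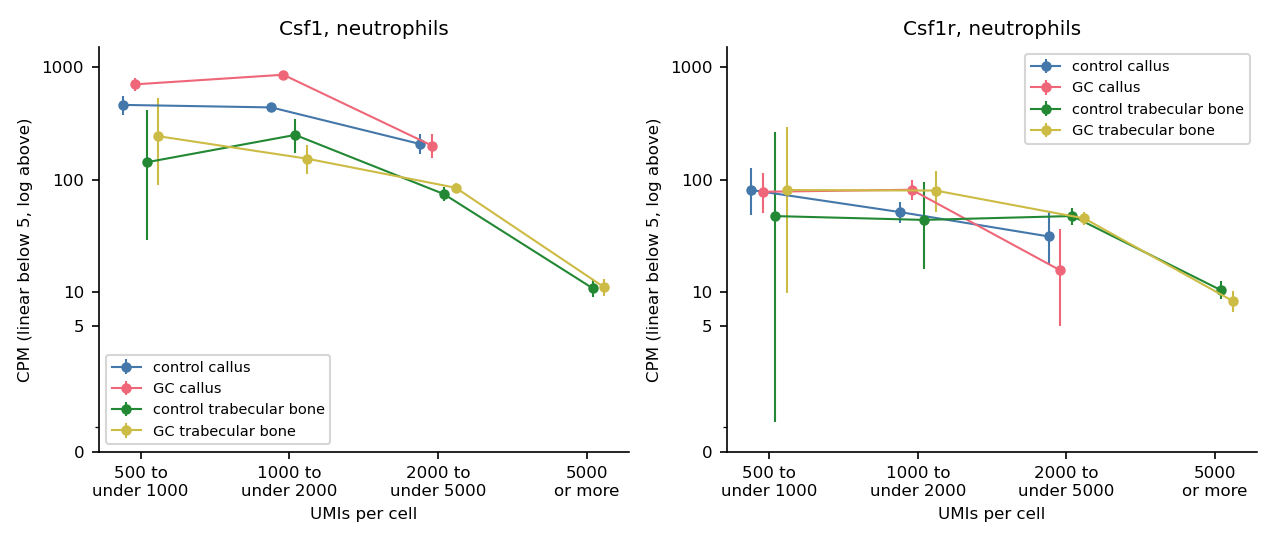
Csf1 and Csf1r levels of neutrophils (CPM, linear below 5 and log above) by the number of UMIs in a cell, one line for each library with 95% counting intervals. The control trabecular Csf1 line reads 143, 249, 74.5 and 10.9 CPM and the GC trabecular line 243, 153, 84.7 and 11.1 CPM from the shallowest to the deepest cells.

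The 3 callus neutrophil clusters differed in Csf1. Cluster 0, of 1160 GC and 504 control cells, stood at 725 CPM, cluster 2, of 49 GC and 1056 control cells, at 476 CPM, and cluster 11, of 176 GC and 132 control cells, at 87.3 CPM. The last was the one rich in granule genes, with Camp (an antimicrobial peptide of secondary granules) at 9343 CPM against 7.59 and 3.37 CPM in the others. Different clusters thus held most of the neutrophils of control and GC callus, and clusters 0 and 2 carry the comparison between conditions.

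Among skeletal cells, hypertrophic chondrocytes, the cartilage cells that precede mineralization, had 83.0 CPM of Csf1 in control callus (1201 UMIs, 769 cells) and 53.3 CPM in GC callus (695 UMIs, 946 cells). That is a ratio of 0.642 (0.584 to 0.706), counted as lower, where 2.14% of genes of the class were lower. With each library clustered alone the log2 ratio was -1.26, against -0.59 with both clustered together. Chondrocytes stood at 17.0 and 12.7 CPM (0.748, 0.657 to 0.851) and skeletal stem or stromal cells at 62.3 and 40.5 CPM (0.650, 0.406 to 1.02). Osteoblasts and osteocytes, classical sources of CSF1 in bone, went the other way, at 48.8 and 69.9 CPM (1.43, 1.02 to 2.02), and neither they nor the other 2 passed 1.5-fold. Endothelial cells stood at 44.3 and 53.2 CPM, from 20 and 24 UMIs. In hypertrophic chondrocytes the molecules were unevenly spread, and the highest cell held 36 UMIs in control and 29 in GC callus. GC callus also held most of 4 unnamed clusters with mixed cartilage, osteoblast and endothelial markers, whose 210 GC cells stood at 80.0 CPM of Csf1 (150 UMIs) and are in none of these classes.

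Monocytes and macrophages of callus, the cells that carry the receptor, had little Csf1 themselves. As a pooled class they stood at 15.1 CPM in control and 45.1 CPM in GC callus (2.98-fold, 2.12 to 4.26, with 8.76% of genes higher), from 48 and 118 UMIs. Monocytes stood at 16.0 and 36.9 CPM (2.30, 1.56 to 3.45, with 10.3% of genes higher). Macrophages, with 7 UMIs in 84 control cells and 40 UMIs in 89 GC cells, stood at 11.4 and 79.8 CPM, and in GC callus 10 cells held 85.0% of their UMIs. RNA of neutrophil granule genes moved in the same direction in callus monocytes, at 627 CPM in control and 1372 CPM in GC callus for the 8-gene list, while the 12-gene mature neutrophil list stood at 3314 and 2730 CPM, and the part of either in the Csf1 value was not tested. Osteoclasts, at 3.21 and 4.42 CPM of Csf1 from 7 and 9 UMIs, were at or near the level of T and NK cells.

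In trabecular bone the highest Csf1 levels were in rare mast cells or basophils, and neutrophils held most of the molecules at a low level each. The mast cells or basophils stood at 421 CPM in control (102 UMIs, 29 cells) and 302 CPM in GC bone (121 UMIs, 43 cells), a ratio of 0.717 (0.546 to 0.943). Trabecular neutrophils stood at 25.5 CPM (22.9 to 28.3, 2270 cells) and 35.6 CPM (32.8 to 38.6, 2985 cells), which is 1.40-fold (1.22 to 1.60) and under the fold that counts as higher, passed by 5.32% of genes. Csf1 was thus 15.3-fold higher in callus than in trabecular neutrophils of control mice (13.6 to 17.3) and 19.5-fold in GC mice (17.6 to 21.5), but callus neutrophils were shallower, and by depth class the gap was smaller: with 1000 to under 2000 UMIs a cell, 437 against 249 CPM in control and 851 against 153 CPM in GC mice. When barcodes above the UMI cutoff alone were clustered and named anew, the cells named neutrophils, of which 1455 of 1634 in control and 1510 of 1649 in GC bone bear that name here too, stood at 10.9 and 10.3 CPM, so the direction between conditions turned. A few control cells carried much of the trabecular value, since 10 cells held 30.6% of the UMIs, against 13.6% in GC bone. Control B cells stood at 22.8 CPM from 42 UMIs in 316 cells, and GC bone held 16 B cells without a Csf1 UMI.

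The UMIs were also assigned to classes by their share of each library's cells. Neutrophils held 28.9% of the Csf1 UMIs but 3.03% of all UMIs in control callus, and 46.0% of Csf1 but 3.39% of all in GC callus. Cells of the osteolineage (chondrocytes, hypertrophic chondrocytes, osteoblasts and stromal cells) held 66.7% and 41.1%, of which hypertrophic chondrocytes made up 36.8% and 25.3% of the library's Csf1. As a pooled class the osteolineage stood at 32.7 and 27.7 CPM of Csf1, against 40.8 and 51.0 CPM over all called callus cells. Its share of Csf1 was thus below its share of all UMIs in both libraries. Such shares also depend on depth. The median chondrocyte held 25213 UMIs in control and 5734 in GC callus, and the part of this difference in the shares was not tested. In trabecular bone neutrophils held 62.3% and 74.7% of Csf1 with 42.3% and 43.5% of all UMIs, and mast cells or basophils 17.5% and 15.7% with 0.721% and 1.08%. The callus shares include neutrophils that nearly all lie below the UMI cutoff. In the clustering of barcodes above it, cells named neutrophils, mostly progenitors or promyelocytes here, held 0.409% of Csf1 in control and 1.57% in GC callus.

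**Figure D3:**
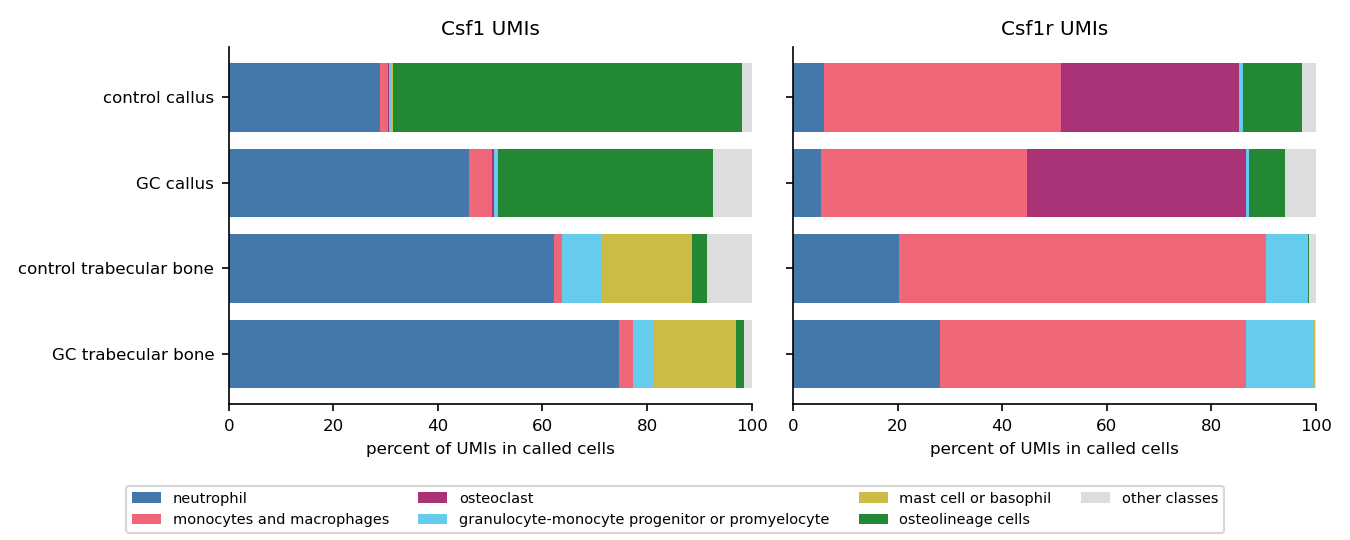
Share of the Csf1 and Csf1r UMIs (percent of the UMIs in the cells of a library) held by each cell class, one bar for each library. Neutrophils hold 28.9%, 46.0%, 62.3% and 74.7% of Csf1 in control callus, GC callus, control and GC trabecular bone, and monocytes, macrophages and osteoclasts hold most Csf1r.

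Most Il34 UMIs of these libraries lay in callus mesenchymal cells. Osteolineage cells held 91.2% of its 194 UMIs in control callus and 80.2% of its 111 UMIs in GC callus. They also held most UMIs of all genes there, so these shares alone show no enrichment. In GC callus their Il34 level was 2.19 CPM, close to the 2.07 CPM of all called cells. The highest level was in pericytes or smooth muscle cells, at 90.4 CPM in control (15 UMIs, with 5 of 12 cells positive) and 34.9 CPM in GC callus (4 UMIs in 15 cells). Stromal cells stood at 7.91 and 8.10 CPM, chondrocytes at 2.76 and 2.48 CPM and hypertrophic chondrocytes at 2.07 and 1.38 CPM. Stromal cells exceeded chondrocytes 2.87-fold in control (1.21 to 5.82) and 3.27-fold in GC callus (1.16 to 7.52), and in stromal cells, chondrocytes and hypertrophic chondrocytes the interval of GC over control held 1. No Il34 UMI was found in any neutrophil, monocyte or macrophage of either tissue. Callus osteoclasts held 1 UMI in 110 control cells and 5 in 122 GC cells. Trabecular bone held 1 UMI in control and 2 in GC cells, all in an unnamed cluster with Col1a1 and Dcn.

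Csf1r (ENSMUSG00000024621, protein coding, chr18:61100598-61132149 of GRCm38, plus strand, with 6 annotated transcripts) marked monocytes, macrophages and osteoclasts in callus. Levels were close to each other in control mice, and in GC mice osteoclasts stood above monocytes and macrophages pooled. Callus monocytes and macrophages together stood at 294 CPM in control (276 to 314) and 343 CPM in GC callus (321 to 366), and osteoclasts at 322 CPM (298 to 346) and 469 CPM (440 to 500). A Csf1r UMI was seen in 86.4% of control and 95.9% of GC osteoclasts. Osteoclasts exceeded the monocytes and macrophages 1.09-fold in control callus, with an interval of 0.989 to 1.21 that holds 1, and 1.37-fold in GC callus (1.25 to 1.5). Against macrophages alone the ratio was 1.04 (0.882 to 1.22) in control and 1.14 (0.976 to 1.33) in GC callus, and both intervals hold 1. Between conditions, the osteoclast level was 1.46-fold higher under GC (1.32 to 1.61), just under the fold passed by 5.44% of genes, and that of monocytes and macrophages was 1.17-fold higher (1.06 to 1.28). Macrophages alone stood at 310 and 413 CPM (1.33, 1.09 to 1.63) and monocytes at 291 and 327 CPM (1.12, 1.01 to 1.25). When barcodes above the UMI cutoff were clustered and named anew, 71 control and 39 GC cells were named monocytes or macrophages and stood at 218 and 201 CPM, in the opposite direction, and 47 and 27 of them are in the class given here.

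Outside these lineages, dendritic cells stood at 50.2 CPM of Csf1r in control (28 UMIs) and 138 CPM in GC callus (78 UMIs), 2.75-fold higher (1.76 to 4.39, with 13.3% of genes higher). Neutrophils stood at 50.1 and 67.5 CPM (1.35, 1.04 to 1.75), which was 16-fold and 36.4-fold above T and NK cells, at 3.14 and 1.85 CPM. Cells named neutrophils above the UMI cutoff, mostly progenitors or promyelocytes here, gave a log2 ratio of -0.53. Chondrocytes stood at 3.22 and 4.88 CPM. Over all callus cells Csf1r passed the fold, at 25.8 CPM in control and 42.5 CPM in GC cells (1.65, 1.55 to 1.75), where 1.85% of genes were higher. The Csf1r UMIs themselves numbered 2062 in control and 2282 in GC cells, among 79872511 and 53732829 UMIs of all genes. The median chondrocyte held 25213 UMIs in control and 5734 in GC callus, and the part of this depth in the ratio was not tested. No single receptor class among those named above except dendritic cells passed the fold, and the class with the largest share of Csf1r differed. Monocytes and macrophages held 45.3% of it in control and 39.3% in GC callus, osteoclasts 34.0% (32.0 to 36.1) and 41.9% (39.9 to 43.9), and neutrophils 5.87% and 5.39%.

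In trabecular bone Csf1r was lower under GC in monocytes, unlike in callus. Monocytes there stood at 203 CPM in control (839 UMIs, 270 cells) and 137 CPM in GC bone (563 UMIs, 265 cells), a ratio of 0.676 (0.606 to 0.753). With the few cells named macrophages added, 12 in control and 28 in GC bone, the levels were 208 and 159 CPM (0.765, 0.692 to 0.846), under the fold that 2.16% of genes passed downwards. With each library clustered alone the log2 ratio of this pooled class was -0.090, against -0.38 with both clustered together. The cells named macrophages stood at 376 and 581 CPM. Their leading genes included Adgre4, Ace and Ear2, and a callus cluster led by Ace, Ear2 and Treml4 was named monocyte. Callus macrophages were instead led by C1qa, C1qb and C1qc, so the name does not cover like cells in the 2 tissues. RNA of the neutrophil granule list stood at 35296 CPM in the GC cells so named. Callus monocytes and macrophages exceeded those of trabecular bone 1.41-fold in control and 2.15-fold in GC mice, but callus monocytes were shallower. Their medians were 4259 UMIs in control and 3775 in GC callus, against 12234 and 12238 in trabecular bone. After thinning to equal depth, 141 of 671 control callus cells and 63 of 279 control trabecular cells held a Csf1r UMI. In GC mice 174 of 645 and 57 of 286 did. At equal depth the share with Csf1r was thus higher in callus in GC mice but not in control mice. Trabecular neutrophils stood at 17.9 and 20.6 CPM (1.15, 0.975 to 1.36), against 0 Csf1r UMIs in T and NK cells, and held 20.2% and 28.2% of the library's Csf1r. Granulocyte and monocyte progenitors stood at 12.3 and 17.1 CPM (1.39, 1.07 to 1.80), and 1 of their clusters, with 82 GC and 60 control cells, at 47.3 CPM.

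Cells of the neutrophil lineage, which are the neutrophils plus the granulocyte and monocyte progenitors or promyelocytes, were next ordered by maturation. The stage of a cell was the share of mature neutrophil UMIs (12 genes such as Il1b, Retnlg and Cxcr2) among these plus granule UMIs (8 genes such as Ltf, Camp, Ngp and Lcn2, made while granules form), in 5 ranges of 0.2, with cells led by azurophil genes (Mpo, Elane) apart. These are ranges of a score and not cell types, and 74, 139, 522 and 1369 cells lay near a limit between ranges in control callus, GC callus, control and GC trabecular bone. Csf1 was higher in the most than in the least mature range of all 4 libraries. In control callus the level was 11.8, 18.5, 32.8, 57.7 and 358 CPM from the least to the most mature range, and in GC callus 4.25, 79.0, 162, 243 and 759 CPM. The highest range exceeded the lowest 30.2-fold (5.41 to 1194) and 179-fold (32.0 to 7056), each with 1 Csf1 UMI in the lowest range, which in the neutrophil class alone held 16 control and 24 GC cells with 1 and 0 Csf1 UMIs. Control trabecular bone gave 6.60, 6.17, 12.2, 11.8 and 53.8 CPM, and GC trabecular bone 4.80, 40.7, 72.5, 41.6 and 44.7 CPM, 8.15-fold (6.18 to 10.9) and 9.33-fold (6.39 to 13.8) between the ends. Within the most mature trabecular range the level also fell with depth. Cells of 2000 to under 5000 UMIs stood at 89.1 CPM in control and 61.7 CPM in GC bone. Those of 5000 or more stood at 21.1 and 22.9 CPM, and the part of depth in the folds was not tested.

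**Figure D4:**
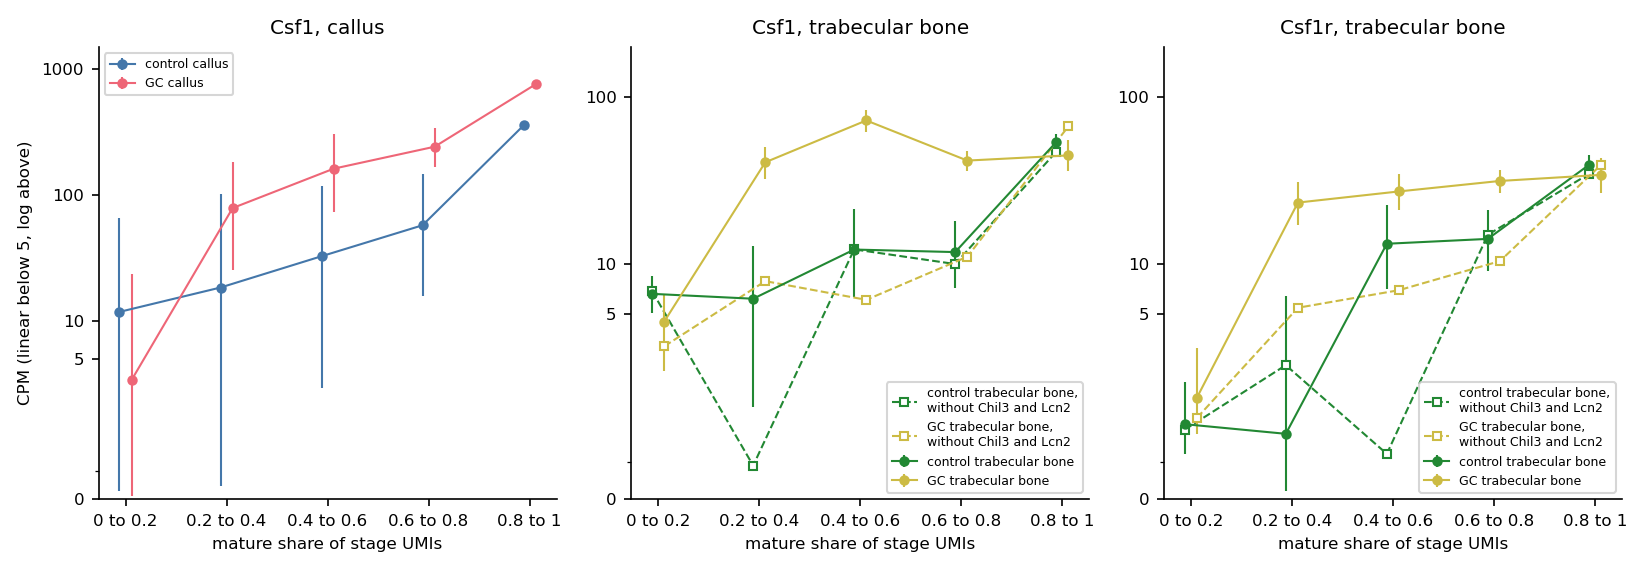
Csf1 level of the callus neutrophil lineage and Csf1 and Csf1r levels of the trabecular one, progenitors included (CPM, linear below 5 and log above) by maturation range, the share of mature-stage UMIs in a cell, with 95% counting intervals and dashed lines for the score without Chil3 and Lcn2. Csf1 climbs from 11.8 to 358 CPM in control callus and from 4.25 to 759 CPM in GC callus, and lies lower in trabecular bone.

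The most mature range held 1608 of the scored control and 1185 of the scored GC callus cells, and within it Csf1 was 2.12-fold higher under GC (1.95 to 2.32). Of these, 1591 and 1180 were named neutrophils, and they stood at 422 CPM in control and 822 CPM in GC callus, 0.95 on the log2 scale. In trabecular bone the same range gave 0.832 (0.649 to 1.06), an interval that holds 1, or -0.24 on the log2 scale. When the stage is scored without Chil3 and Lcn2 the direction turned, at 0.46 on the log2 scale, with GC bone higher. In trabecular cells between 0.2 and 0.8 Csf1 stood at 10.2 CPM in control and 49.0 CPM in GC bone (4.80-fold, 3.46 to 6.84), and these made up 21.9% of scored control and 62.5% of scored GC cells. The size of this difference depended on which granule genes were scored. The levels of Chil3 and Lcn2 in trabecular neutrophils were 1756 CPM in control and 9988 CPM in GC bone for Chil3 and 10766 and 14943 CPM for Lcn2, while Ltf stood at 4864 and 3088 CPM and Camp at 15726 and 11160 CPM. Scored without Chil3 alone, a choice made after these levels were seen, cells between 0.2 and 0.8 stood at 10.3 CPM in control and 41.4 CPM in GC bone. Scored without Chil3 and Lcn2, likewise chosen afterwards, the trabecular series read 6.84, 0.904, 12.2, 9.96 and 47.1 CPM in control and 4.13, 7.87, 6.08, 11 and 66.8 CPM in GC bone, and cells between 0.2 and 0.8 stood at 7.17 and 8.51 CPM. The callus series then read 11.8, 22, 18, 25.6 and 354 CPM in control, with no steady order in the middle, and 4.35, 33.8, 135, 189 and 741 CPM in GC callus.

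Most clusters of trabecular neutrophils came largely from 1 library, and the Csf1 level was highest in 1 cluster of each library. Cluster 8, of 438 GC and 3 control cells, stood at 226 CPM of Csf1 (200 to 254), and cluster 4, of 12 GC and 518 control cells, at 133 CPM (117 to 150). Both were high in Il1b, an inflammatory cytokine (11965 and 7786 CPM), and in Ccrl2, an atypical chemokine receptor (2323 and 752 CPM). Cluster 1, of 795 GC and 4 control cells, stood at 65.5 CPM of Csf1 from 183 UMIs, beside 272 UMIs in cluster 8. The granule-rich cluster 5, of 304 GC and 160 control cells, stood at 2.92 CPM of Csf1. Cluster 8 had a median of 2551 UMIs a cell and cluster 5 one of 10214, and the part of depth in this order was not tested.

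Csf1r followed a similar course in trabecular neutrophils, and azurophil-led cells had it too. That range, which does not part progenitors from promyelocytes, stood at 22.0 CPM in control and 25.1 CPM in GC bone. Of the trabecular clusters named progenitors or promyelocytes, that of 82 GC and 60 control cells stood at 47.3 CPM. The others stood at 0 to 2.59 CPM. The least mature range, rich in granule genes, stood at 2.02 and 2.74 CPM and was the lowest in GC bone. The most mature reached 39.2 and 34.2 CPM, 19.4-fold (12.1 to 32.8) and 12.5-fold (7.73 to 20.8) higher. The ranges between read 1.76, 13.2 and 14.1 CPM in control and 23.3, 27.2 and 31.4 CPM in GC bone, and 3.62, 1.22 and 14.9 CPM and 5.45, 6.94 and 10.4 CPM without Chil3 and Lcn2. By depth, trabecular cells of 2000 to under 5000 UMIs stood at 47.6 CPM in control and 45.3 CPM in GC bone, and those of 5000 or more at 10.5 and 8.37 CPM. In callus the most mature range stood at 47.5 and 70.9 CPM (1.49, 1.14 to 1.95), and too few immature cells were present to follow the gene.

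Monocytes were ordered by the share of macrophage-maturation UMIs (10 genes such as C1qa, Mrc1 and Apoe) among these plus classical monocyte UMIs. Csf1r was modestly higher in the macrophage end of this order in callus. The 5 ranges gave 256, 272, 287, 376 and 402 CPM in control and 292, 355, 404, 351 and 458 CPM in GC callus, and the ends differed 1.57-fold in both (1.29 to 1.91 in control). In trabecular bone nearly all cells lay in the lowest range, at 186 CPM in control (260 cells) and 145 CPM in GC bone (268 cells), a ratio of 0.777 (0.697 to 0.865). The 22 cells above it in each library stood at 510 to 1040 CPM. Along the share of non-classical genes (such as Ace, Treml4 and Nr4a1), the ends were at 279 and 541 CPM in control callus (1.94, 1.38 to 2.66) and 334 and 374 CPM in GC callus (1.12, 0.696 to 1.71). Csf1 did not follow this order: in GC callus it was 59.8 CPM in the lowest and 62.9 CPM in the highest macrophage range, and in control callus 25 and 10.5 CPM.

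Osteoclasts of both callus libraries pooled were split into 3 equal groups by the fraction of a cell's UMIs that came from 8 resorption genes. Among these are Ctsk (the collagen-degrading protease cathepsin K) and Acp5 (tartrate-resistant acid phosphatase). Csf1r was higher in osteoclasts with more resorption genes, going from 175 through 310 to 438 CPM in control callus (2.50-fold, 1.99 to 3.16) and from 218 through 354 to 729 CPM in GC callus (3.34-fold, 2.73 to 4.11). The GC over control ratio was 1.25 (0.942 to 1.65), 1.14 (0.957 to 1.37) and 1.66 (1.45 to 1.91) from the lowest to the highest group. Ordered instead by 7 precursor and fusion genes, such as Nfatc1, Dcstamp and Itgb3, the levels were 181, 243 and 466 CPM in control and 243, 444 and 682 CPM in GC callus. A single GC osteoclast held 69 of the 956 Csf1r UMIs. After thinning to 1000 UMIs a cell, the log2 ratio between the highest and lowest groups was 3.02 in control callus, against 1.30 with all UMIs and 5 CPM added.

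**Figure D5:**
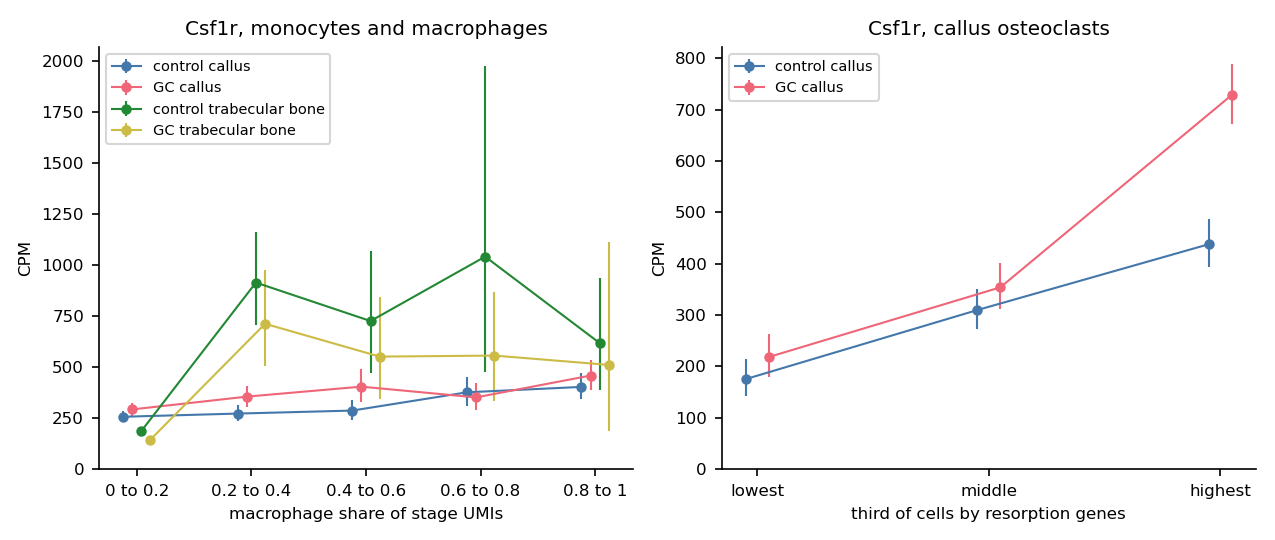
Csf1r level (CPM) by the macrophage share of monocytes and macrophages and by the resorption gene group of callus osteoclasts, one line for each library with 95% counting intervals. The osteoclast lines go from 175 to 438 CPM in control and from 218 to 729 CPM in GC callus.

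Ligand and receptor were found together in few neutrophils: 39 cells in control callus, 61 in GC callus, 21 in control and 46 in GC trabecular bone held UMIs of both Csf1 and Csf1r. Among neutrophils with Csf1, 7.75%, 10.7%, 11.9% and 13.3% also held Csf1r, against 6.22%, 6.27%, 9.65% and 9.58% of those without. Thinned to 1000 UMIs the shares were 5.60%, 8.68%, 6.06% and 7.04% against 3.91%, 5.39%, 2.25% and 2.88%, from 20, 33, 4 and 10 cells with both genes. In callus monocytes and macrophages, Csf1r was found in 58.8% of control cells with Csf1 against 64.9% of those without, and in 66.7% against 66.2% in GC callus.

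Partner genes of inflammation and of granules were compared between neutrophils with and without a Csf1 UMI. Each of 21 genes was taken as a ratio of CPM, and 1, 4, 12 and 13 of them passed 1.5-fold upwards in control callus, GC callus, control and GC trabecular bone, where 4.01%, 3.84%, 8.19% and 12.8% of all genes tested in the same cells did. Downwards 6, 6, 3 and 3 passed, against 3.92%, 4.85%, 4.32% and 2.59% of all genes. In trabecular bone the cells with Csf1 were shallower, with medians of 4398 against 5861 UMIs in control and 3281 against 4916 in GC bone, and the part of depth in these ratios was not tested. Maturity was followed only by repeating the comparison within single maturation ranges. Ccrl2 was 1.65, 1.67, 3.81 and 3.59 times as high in Csf1-positive cells. The chemokine Ccl3 gave 1.01, 1.66, 4.94 and 5.74 and the adhesion molecule Icam1 1.44, 2.19, 3.84 and 3.70. Of genes of NF-kB feedback, Tnfaip3 gave 1.18, 1.36, 1.88 and 2.93 and Nfkbia 1.17, 1.32, 1.94 and 2.43. Camp, at 0.0834, 0.124, 0.665 and 0.299, and Ltf, the iron-binding lactoferrin, at 0.0981, 0.101, 0.653 and 0.372, were lower in every library. Within the most mature range alone, the median log2 ratio of the partner genes was 0.172, 0.308, 0.430 and 0.172. Over all neutrophils it was 0.190, 0.362, 0.781 and 1.14, so the ratios were smaller in that range, most of all in GC trabecular bone. There Ccrl2 gave 1.64, 1.60, 2.81 and 1.37 and Ccl3 1.03, 1.63, 4.04 and 6.36 in the 4 libraries. Il1b and Retnlg are in both the partner and the mature list.

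Callus monocytes and macrophages with a Csf1r UMI were compared with those without in the same way. Mrc1, the mannose receptor, was 4.05-fold and 3.2-fold higher in control and GC callus, C1qa, a complement subunit, 2.72-fold and 2.84-fold, and Acp5 3.25-fold and 2.46-fold. Of the partner genes with enough UMIs, 6 of 18 and 5 of 17 passed 1.5-fold upwards, against 4.42% and 4.83% of all genes, and 0 downwards, against 1.31% and 2.41%. The cells with Csf1r were deeper, with medians of 4846 against 3604 UMIs in control and 3962 against 3430.5 in GC callus. In trabecular bone 1 of 14 passed upwards and 1 downwards in control, against 8.05% and 5.79% of all genes, and 0 and 1 of 15 in GC bone, against 5.87% and 2.58%. In osteoclasts Ctsk was 4.56-fold and 7.02-fold higher in cells with Csf1r, and Trem2, a lipid receptor of macrophages, stood at 0.511 and 0.454, but only 15 control and 5 GC osteoclasts lacked a Csf1r UMI. Their medians were 4385 and 5073 UMIs, against 21001 and 16746 in cells with Csf1r, and 21.8% and 44.5% of all genes were higher and 15.6% and 18.8% lower in the latter.

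The other genes of the pathway were compared between control and GC in the cells that carry the receptor. Of CSF1R adaptor and signal genes, 2 of 18 tested were higher and 0 lower in callus osteoclasts, against 5.44% and 5.15% of all genes. The higher ones were Socs1 (a feedback inhibitor, 1.91) and Mapk3 (the kinase ERK1, 1.73). The list's median log2 ratio was -0.02 against 0.04 over all genes. In callus monocytes and macrophages 1 of 18 was higher, Pik3r1 (a PI3-kinase subunit, 1.67), against 8.76% of genes, and 0 were lower, against 7.5%. In macrophages alone 4 of 13 were higher, among them Socs1 (2.46), Mapk3 (1.70) and Pik3r1 (1.54), and the phosphatase gene Ptpn6 was lower (0.633), where 12.6% of genes were higher and 8.54% lower, and the list's median log2 ratio was 0.23 against 0.07 over all genes. The genes named had 17 to 64 UMIs a library, and the intervals of Mapk3 and Ptpn6 held 1. Callus neutrophils had 1 of 16 higher, the kinase gene Src (2.02), and 1 lower, the adaptor Tyrobp (0.665), where 12.3% of genes were higher and 12.2% lower. Trabecular neutrophils had 1 of 18 higher, the adaptor Gab2 (2.03), against 5.32% of genes, and trabecular monocytes and macrophages 0 of 18 in either direction, against 1.43% of genes higher and 2.16% lower.

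Among the 13 genes for transcription factors known to act on Csf1r, Fos was lower in every class given here but trabecular monocytes and macrophages. Its GC over control ratio was 0.220 in callus neutrophils, 0.563 in osteoclasts, 0.317 in callus monocytes and macrophages pooled, 0.553 in callus macrophages alone and 0.538 in trabecular neutrophils, where 12.2%, 5.15%, 7.5%, 8.54% and 1.83% of genes were lower. Cebpb, at 0.386, was the other lower gene of 10 tested in callus neutrophils. In osteoclasts Maf was higher (1.75), against 5.44% of genes. In callus monocytes and macrophages Tfec was higher (2.28), against 8.76% of genes, and Jun lower (0.639). In macrophages alone Klf4 (1.96) and Tfec (1.87) were higher, against 12.6% of genes. Each of these classes had 13 genes tested. Fos and Jun are immediate early genes that encode subunits of the factor AP-1. A further list held 6 genes for CSF1 shedding or other CSF1R and IL-34 partners. In osteoclasts 1 of 5 tested was lower, Trem2 (0.588), against 5.15% of genes. In trabecular neutrophils 1 of 3 was higher, the protease Adam10 (1.58), against 5.32% of genes. In callus macrophages 1 of 5 was higher, the protease Furin (1.85), against 12.6% of genes.

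The genes whose class profile was most like each member were found by Pearson's correlation of log2(CPM + 5), as a description over class and library profiles that share libraries. For Csf1 in callus, over 34 profiles of 18 classes and 8058 genes, they were Igf1r (0.769), Cdk5r1, Fpr2, Reps2 and Slc31a2 (0.745), and in trabecular bone, over 18 profiles of 10 classes and 5908 genes, Cd200r1 (0.909), Rnase12, Prss34, Klf7 and Mcpt8 (0.880), of which Prss34 and Mcpt8 are basophil proteases. For Csf1r they were Clec4a2 (0.943), Cd68, Pirb, Gas2l3 and Atp6v0c (0.892) in callus and Apoc2 (0.943), Pid1, Lrp1, Adgre1 and Cd302 (0.931) in trabecular bone. For Il34 in callus they were Adra2a (0.964), Tmem100, Lama2, Nr2f1 and Actg2 (0.921).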

How the data were processed

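The authors deposited UMI counts per gene and barcode, not normalized. The submitters' processing notes name Cell Ranger 5.0.1, Seurat 3.2.0 and mm10, whereas the matrix headers name Cell Ranger 4 (4.0.0 in GC callus). No cell labels of the authors were used here. Members and gene lists were chosen with earlier results of these data known.

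In the 3 full matrices, barcodes with at least 500 UMIs were called cells above a UMI cutoff (7534, 4790 and 4698 in control callus, control and GC trabecular bone) or by a Monte Carlo test against the empty droplet profile (10000 simulations, false discovery rate 0.01). The GC callus matrix was taken as called. Cells needed 200 genes and at most 10% mitochondrial UMIs, and simulated-doublet scores removed 120 to 428 cells a library. This left 6680, 6890, 3745 and 4592 cells (control callus, GC callus, control and GC trabecular bone).

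For each tissue, both libraries entered 1 clustering with no correction for library, on 2000 variable genes, 30 components, 15 neighbors and Leiden resolution 1, without 42 genes (members and pathway lists), and clusters were named from 193 markers of 22 classes (at least 3 markers at 2-fold in 10% of the cells). Clusters with mixed markers stayed unnamed. Levels are CPM over the summed UMIs of a class with exact Poisson intervals. Ratios have exact conditional intervals, and both cover counting error only. Stage scores needed 5 UMIs of the lists in neutrophils and 3 in monocytes. Chil3 is in both the neutrophil granule and the classical monocyte list. Named genes are the members, list genes and the 5 most like each member. The fold count was tested on simulated data. Neutrophil stage was scored over neutrophils and granulocyte-monocyte progenitors or promyelocytes. Alternatives covered calling, filters, doublets, clustering, depth, ambient RNA, pseudocounts and stage lists. Clustering used leidenalg 0.10.2 with igraph 0.11.9 and scikit-learn 1.9.0, intervals scipy 1.17.1, and tables and plots pandas 2.3.3, numpy 2.4.6 and matplotlib 3.10.9, under Python 3.11.15.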

Additional observations from a re-analysis of the deposited data

Results flagged for a closer look

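Csf1r in monocytes and macrophages was higher under GC in callus, with a ratio of 1.17, and lower under GC in trabecular bone, with a ratio of 0.765. The opposite directions in the 2 tissues flagged it. Neither value was steady. On the log2 scale with 5 CPM added, the callus value went from 0.22 to -0.11 when barcodes above the UMI cutoff alone were clustered. That of trabecular bone went from -0.38 to -0.090 with each library clustered alone. The difference between the tissues was not tested, since each tissue has 1 library a condition.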

How the results depend on the processing

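No paired analysis was possible because each group holds 1 library, and for the same reason no replicate could be left out. Over 567 alternative values of 49 results, 439 stayed within the counting interval, 125 moved beyond it and 3 reversed. A change of sign was counted as reversed only where the main interval excluded no difference. Other changes of sign are among the values that stayed or moved. Csf1 in the most mature trabecular range, for example, went from -0.24 to as high as 0.51. Values below are log2 ratios with 5 CPM added unless given as a percent, and the cause of each move was not tested. Depth limits Il34, with at most 194 UMIs in a library's cells, and the immature callus neutrophils, with 1 Csf1 UMI in each library's lowest range.

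The UMI cutoff moved most. Barcodes above it were clustered and named anew, with the control callus cutoff used for GC callus, and in callus the cells then named neutrophils were mostly progenitors or promyelocytes of the clustering used here. There 3 directions reversed by the rule given above: Csf1r in callus neutrophils went to -0.53, Csf1 in trabecular neutrophils to -0.059 and Csf1r in callus monocytes and macrophages to -0.11. Other GC over control values became 0.97 (Csf1, callus neutrophils), -0.12 (Csf1r, trabecular neutrophils), 2.32 (Csf1, callus monocytes and macrophages), 0.32 (Csf1r, osteoclasts), -0.35 (Csf1, hypertrophic chondrocytes) and 0.53 (Csf1, trabecular mature share 0.2 to 0.8). The ends of the stage orders became 1.10 (Csf1r, macrophage order, control callus), 2.57 (Csf1r, GC osteoclasts), 1.16 and 1.55 (Csf1, control and GC trabecular neutrophils). The neutrophil share of Csf1 became 0.409% and 1.57% in control and GC callus and 54.1% and 49.3% in control and GC trabecular bone, and the monocyte, macrophage and osteoclast share of Csf1r 88.3% in GC callus and 84.8% and 85.7% in trabecular bone.

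Other cell filters moved shares and osteoclast values. At 5% mitochondrial UMIs, Csf1r in osteoclasts gave 0.28 between conditions and 1.14 between the ends in GC callus, the receptor cells' share of Csf1r was 75.9%, 74.6%, 73.3% and 63.9% (control callus, GC callus, control and GC trabecular bone), and the neutrophil share of Csf1 in control trabecular bone was 70.1%. At 500 genes a cell, the neutrophil share was 27.1% in control callus and 68.6% in control trabecular bone. Without doublet removal, the most mature callus neutrophils gave 0.94 for Csf1, the neutrophil share in GC callus was 39.8%, and the receptor cells' share was 76.3%, 79.1%, 74.0% and 65.7%. In called cells only, Csf1r over the callus library gave 0.72.

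Clustering moved 8 values. With each library clustered alone, Csf1r in trabecular monocytes and macrophages gave -0.090, Csf1 in hypertrophic chondrocytes -1.26, the neutrophil share in control trabecular bone 68.4%, and the receptor cells' share 76.5% and 63.2% in control and GC trabecular bone. At Leiden resolution 0.5 hypertrophic chondrocytes gave -0.37, and at resolution 2 the most mature callus neutrophils gave 0.94 and the control trabecular neutrophil share was 68.4%.

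Depth and scale were changed next. Thinned to 1000 UMIs, Csf1r in callus monocytes and macrophages gave 0.45, Csf1 in hypertrophic chondrocytes -0.45, Csf1 in the most mature callus neutrophils 0.94, and the ends gave 1.13 (Csf1r, macrophage order, control callus), 3.02 (Csf1r, control osteoclasts) and 3.12 (Csf1, control trabecular neutrophils). The Csf1r share in trabecular neutrophils with Csf1 over that in the others became 2.69 in control and 2.44 in GC bone, as ratios. As a mean over cells, hypertrophic chondrocytes gave -0.39, the most mature callus neutrophils 0.92, and the ends of the trabecular neutrophil order 2.94 (Csf1, control) and 1.74 (Csf1r, GC). With a pseudocount of 1 CPM the ends of the trabecular neutrophil order gave 2.85 and 2.98 for Csf1 and 3.73 and 3.23 for Csf1r in control and GC bone, and with 20 CPM 1.47 and 1.38 for Csf1 and 1.43 and 1.25 for Csf1r, and 1.19 for Csf1 between conditions at 0.2 to 0.8. With the level of B cells subtracted, trabecular Csf1 gave 2.41 between conditions over all neutrophils, 0.47 at 0.8 to 1, 3.43 at 0.2 to 0.8 and 2.84 between the ends in control bone, where B cells themselves held 42 Csf1 UMIs.

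With the neutrophil class alone, added after seeing the data, all 10 stage values stayed within the interval. Stage scores mattered in trabecular bone. Of the lists chosen after seeing the data, that without Chil3 gave 0.11 for Csf1 between conditions at 0.8 to 1, that without Chil3 and Lcn2 gave 0.46, and 0.15 at 0.2 to 0.8, with 2.98 between the ends in GC bone, and that without Chil3, Lcn2, Il1b and G0s2 gave 0.47, 0.13 and 3.0. With the odd-numbered genes of each list the value at 0.8 to 1 was 0.51 in trabecular bone and 0.91 in callus, and the control callus macrophage order gave 0.32. With the even-numbered genes the most mature callus neutrophils gave 0.81, the GC callus macrophage order 0.98 and the trabecular 0.2 to 0.8 range 1.37. At 10 stage UMIs the most mature callus neutrophils gave 0.83. Cutting at 0.5 gave 0.35 for the GC callus macrophage order and 1.25 and 1.54 for Csf1 and Csf1r in GC trabecular neutrophils, and cutting osteoclasts at the median gave 0.78 in control and 1.37 in GC callus.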
